A study of Homo sapiens with 12 samples.

Results

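The genes described here are MYC and 43 genes of ribosome biogenesis, 44 in all, followed across 12 RNA-seq libraries of MV4-11 cells. They were a given list of symbols, matched to the human Ensembl identifiers of a table of 43876 genes, and all 44 were found. The rule for membership uses no threshold on a measured value, but the list was drawn up with earlier results of these data known. MV4-11 is a human acute myeloid leukemia (AML) cell line that carries an internal tandem duplication of FLT3, the receptor tyrosine kinase that gilteritinib inhibits. The study asked how a drug combination acts on such cells and compared 4 conditions with 3 libraries each, all harvested at 24 h. The conditions were 20 nM mitoxantrone-liposome (Mito-Lipo, a topoisomerase II poison packed in liposomes), 25 nM gilteritinib (Gilteritinib), both drugs together at 20 nM each (Com), and DMSO. The sample labels call the first drug mitoxantrone and the cells wild-type, with no engineered change. All libraries come from 1 cell line, and no source used here says whether replicates were separate cultures, so p-values measure the spread between these libraries, which may be technical.

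Ribosomes are built in the nucleolus. RNA polymerase I transcribes the ribosomal RNA precursor, small nucleolar ribonucleoproteins (snoRNPs) modify it, and assembly factors fold, cut and package it into a small and a large subunit. MYC is a transcription factor that binds the E-box CACGTG with its partner MAX and activates many genes of this pathway. In leukemia cells with an active FLT3 receptor, growth signaling feeds into MYC and ribosome production, and damage to ribosome assembly can activate p53 through free ribosomal proteins such as RPL5 and RPL11.

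Values are FPKM, fragment counts divided by gene length and by library size, so levels can be compared between genes per length. The depth, recovered from the step that 1 fragment makes in low values, was 31725000 to 41329000 fragments per library. The AML and monocytic markers were present, among them FLT3 at 132 to 171 FPKM, with CD68 under 0.2 FPKM, while the 3 T cell and 2 fibroblast markers found were under 1 FPKM in all libraries. Libraries separated by replicate number on the first principal component, which held 41.9% of the variance, with replicate 1 of all 4 conditions on one side. The counts over the 43 genes tested are therefore also given from replicates 2 and 3 alone, which are 8 libraries. The AML and monocytic markers were not level across that split either. LYZ was at 686 to 1333 FPKM in the replicate 1 libraries and 490.4 to 596 FPKM in the others, and CSF1R was at 11.4 to 18.3 and 20.9 to 41.1 FPKM. Their part in the results below was not tested.

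The levels spread widely between roles in untreated cells. In DMSO the highest was NPM1, a nucleolar histone chaperone, at 502 ± 6.73 FPKM (SD, n = 3). NCL (nucleolin, which binds the ribosomal RNA precursor) followed at 221 ± 14.7 FPKM, DDX21 (a nucleolar RNA helicase) at 119 ± 1.71 FPKM and MYC at 109 ± 20.9 FPKM. LYAR, a nucleolar zinc finger protein, was at 25.8 ± 1.51 FPKM. MYC thus ranked 4 among the 44 genes and stood at the 97.8 percentile of all genes tested by mean level. DMSO levels of NCL and NPM1 did not overlap with those of MYC, while those of DDX21 did.

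The RNA polymerase I genes were lower than NPM1, NCL, DDX21 and MYC. UBTF, which binds ribosomal DNA, was at 30.4 ± 3.38 FPKM in DMSO and TCOF1 (treacle, its nucleolar partner) at 28.5 ± 3.24 FPKM. The catalytic subunits POLR1A and POLR1B were at 19.9 ± 1.65 and 16.1 ± 1.61 FPKM. UBTF and TCOF1 overlapped in DMSO, so their order is not resolved.

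Among the snoRNP proteins, NOP58 and NOP56, the paired scaffold proteins of box C/D snoRNPs, were at 78.4 ± 6.98 and 75.9 ± 2.51 FPKM and overlapped. NOLC1, a snoRNP chaperone, and DKC1, the pseudouridine synthase of box H/ACA snoRNPs, were at 55.8 ± 2.73 and 54.3 ± 0.691 FPKM. FBL, the methyltransferase of the same box C/D particles as NOP56 and NOP58, was listed at only 3.71 ± 1.02 FPKM, and at 2.48 to 5.86 FPKM over all 12 libraries. FBL shares no exon bases with another gene in GENCODE 29, and whether the counting lost fragments of it was not tested, which holds for each value of FBL below. With the GENCODE exon length of FBL this equals about 171 to 514 fragments per library.

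The 15 small subunit factors ran from 8.87 ± 0.441 FPKM for UTP4 to 52.5 ± 3.40 FPKM for WDR43 in DMSO, both parts of the complex that first binds the precursor. UTP15 and WDR75 of the same complex were at 15.2 and 24.9 FPKM. The early factors NOP14, UTP20, DDX10 (a helicase) and RRP9 (a U3 snoRNP protein) were at 30.5, 13.2, 11.5 and 23.7 FPKM. NAT10, an RNA acetyltransferase, was at 36.3 FPKM, and RRP12, which takes part in export, at 19.6 FPKM. The late factors NOB1 (the nuclease that makes the mature end of the small subunit RNA), PNO1 (its partner), BYSL, TSR1 and LTV1 were at 36.4, 18.0, 23.4, 27.8 and 16.8 FPKM.

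Of the 15 large subunit factors, GNL3 (nucleostemin, a nucleolar GTPase) and BOP1 were highest, at 81.2 ± 8.28 and 76.4 ± 8.79 FPKM in DMSO. BOP1 works in a complex with PES1 and WDR12, which were at 46.3 and 15.2 FPKM. MRTO4, which holds the place of a stalk protein, NOP16, EBNA1BP2 and the helicase DDX18 were at 45.8, 44.8, 43.5 and 41.3 FPKM. RRS1 (which helps to bring a small ribonucleoprotein into the large subunit), GRWD1, RRP1B, NIP7, LAS1L (a partner of the nuclease that cuts the internal spacer) and PPAN were at 25.6, 23.1, 21.2, 16.7, 13.9 and 10.01 FPKM. NOP2, an RNA methyltransferase, was listed at 0.826 ± 0.180 FPKM and was the only one of the 44 genes to miss the filter of 1 FPKM in at least 3 libraries, so 43 were tested.

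The annotation bears on some of these levels. NOP2 (chromosome 12, 6556863 to 6568691 on GRCh38, minus strand) shares 2550 of its 4687 exon bases with AC006064.6 on the same strand, and PPAN shares 1447 with its readthrough gene PPAN-P2RY11 and with P2RY11. Where the counting split or dropped such fragments, those levels are uncertain. The table also lists 31 pseudogenes of NPM1, the highest with a mean of 40.6 FPKM.

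Promoters were searched for the E-box because MYC binds that sequence and the genes were grouped as MYC and its pathway. Of the 44 genes, 35 matched the RefSeq promoter table (GRCh38.p14). CACGTG, which reads the same on both strands, was present within the 250 bases before the start of 4 of the 35 (11.4%), against 8.93% of 9381 promoters of the genes tested and 6.49% of all 27305. The share was 35.7% in the MYC network list (5 of 14) and 29.03% in the list of other MYC targets (9 of 31). The matches are printed below with up to 12 bases on each side, 5′ to 3′ on the gene's strand, with the E-box in capitals.
UTP20 (chr12:101280083-101280104, plus strand, 10 bases from the first base of the match to the start): cttttttccgtcCACGTGaccc
NAT10 (chr11:34105602-34105628, plus strand, 15 bases from the start): aatgcgcttgcgCACGTGctgtctacc
UTP4 (chr16:69132621-69132648, plus strand, 16 bases from the start): agagcgcgcgcgCACGTGgggccggggc
EBNA1BP2 (chr1:43172790-43172819, minus strand, 237 bases from the start): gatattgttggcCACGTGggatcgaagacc
The matches in UTP20, NAT10 and UTP4 lie close to the RefSeq start. By GENCODE 29 the genes NAT10, UTP4 and EBNA1BP2 begin at 34105602, 69131291 and 43270936 on their strands, so their printed windows lie within those genes. A match describes these letters in this window and no binding was measured here.

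The largest pattern among the 43 genes tested followed the replicate number and not the drug. In replicate 1 against replicates 2 and 3, fitted with limma over all genes with 1 mean per condition, 27 of the 43 (62.8%) were lower in replicate 1 at an adjusted p under 0.05 and 2 (4.65%) were higher. Over all genes tested the same calls were 12.7% lower and 26.9% higher, and 18.6% of the protein-coding genes were lower. The median over the 43 genes was -0.26 on the log2 scale, against 0.09 over all genes. All 4 replicate 1 libraries lay below all other 8 for 13 of the 43 (30.2%), against 6.39% of all genes and 1046 of 10506 protein-coding genes. Of gene lists described further below, this held for 25 of 72 cytosolic ribosomal protein genes, 5 of 10 other snoRNP genes and 10 of 37 other MYC targets. Called lower in replicate 1 were 35, 6 and 19 of these, and higher 5, 1 and 3. For other RNA polymerase I, small subunit and large subunit genes all lay below for 2 of 10, 9 of 39 and 6 of 41. For the exosome and MYC network lists it was 2 of 14 and 3 of 16. In bulk RNA, fewer cells of a type and less RNA per cell cannot be told apart.

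MYC had the smallest p of the 43 genes in this contrast. Its FPKM was 85.0, 120.4 and 122 in DMSO replicates 1 to 3, 94.2, 114 and 118 in Mito-Lipo, 83.7, 131 and 138 in Gilteritinib, and 71.5, 123 and 129 in Com. Replicate 1 was the lowest library of each condition, and the 4 lay at 71.5 to 94.2 against 114 to 138 FPKM for the others. MYC was lower by a log2 difference of -0.57 ± 0.07 (SE; adjusted p = 0.000305 from limma). The other genes without overlap were UBTF, NOP14, RRP9, RRP12, NAT10, BYSL, TSR1 and LTV1 of the small subunit and RNA polymerase I groups, and NOP16, PES1, MRTO4 and NIP7 of the large subunit group. RRP9 differed by -0.47 and RRP12 by -0.44. WDR75 and FBL were higher in replicate 1, by 0.24 and 0.45 (adjusted p = 0.00389 and 0.00932 from limma).

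**Figure D1:**
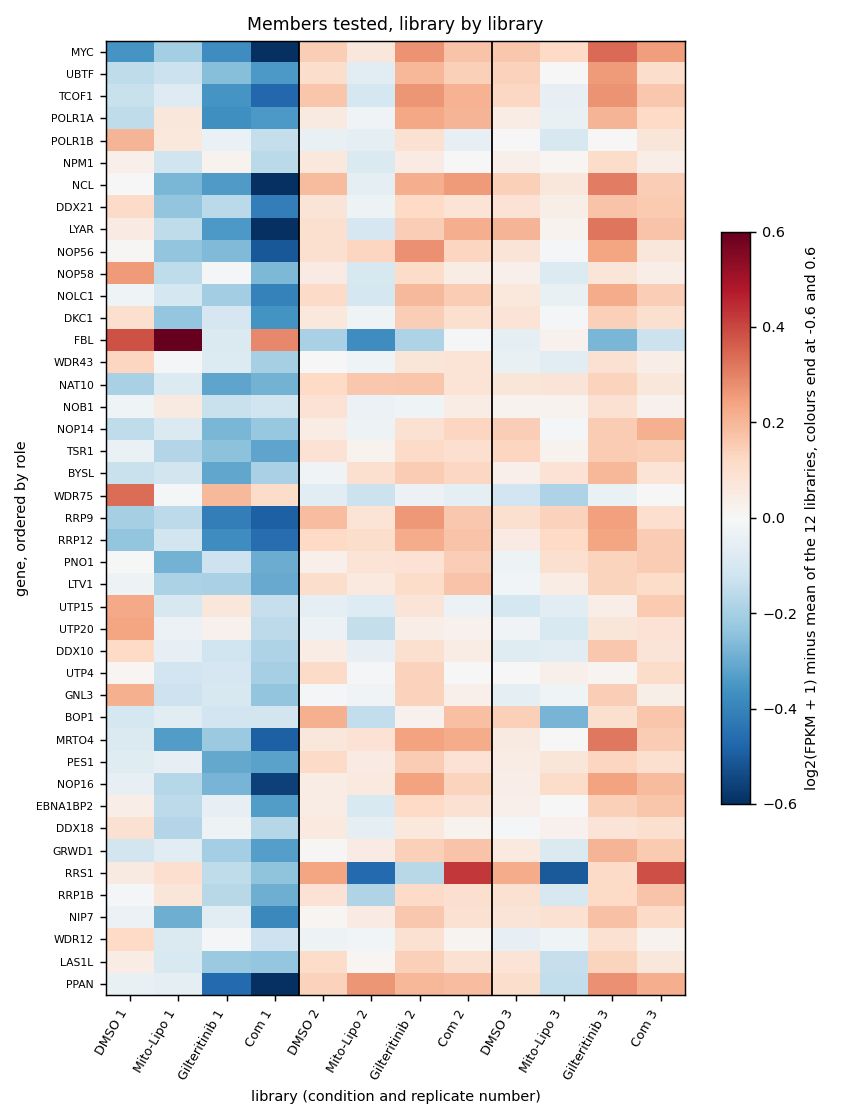
Log2(FPKM + 1) of each of the 43 genes tested, less its mean over the 12 libraries, with libraries ordered by replicate number and genes by role. In colours that end at -0.6 (blue) and 0.6 (red), the replicate 1 block is mostly blue and darkest in Com, MYC included, while WDR75 and FBL are red in most of it.

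The depth of the shift in replicate 1 was not the same in each condition. The median over the 43 genes of each library's distance to the gene's mean was 0.00 in DMSO replicate 1, -0.11 in Mito-Lipo, -0.17 in Gilteritinib and -0.30 in Com. In replicates 2 and 3 these medians were 0.07 and 0.05 in DMSO, -0.02 and -0.00 in Mito-Lipo, 0.14 and 0.15 in Gilteritinib, and 0.10 and 0.11 in Com. So Com was the lowest of the conditions at replicate 1 and Mito-Lipo the lowest at replicates 2 and 3. NCL shows the same order, with 204, 168, 161 and 129 FPKM in DMSO, Mito-Lipo, Gilteritinib and Com at replicate 1, and with Mito-Lipo at 195 and 213 FPKM below 225 to 252 FPKM in the other conditions at replicates 2 and 3.

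Mito-Lipo against DMSO asks what the topoisomerase poison alone did to these genes. With all 12 libraries, 37 of the 43 genes had a lower estimate in Mito-Lipo and 6 a higher one, with a median of -0.09, against 42.96% lower and a median of 0.03 over all genes tested. Over the protein-coding genes tested, 50.1% were lower, with a median of -0.0002. None of the 43 passed an adjusted p of 0.05 from limma, nor did any gene of the 18574 (0%), and none of the 43 passed with the replicate number as a block. At an unadjusted p under 0.05 there were 3 (6.98%), against 7.9% of all genes. For 9 of the 43 (20.9%) all Mito-Lipo libraries lay below all DMSO libraries, against 5.9% of all genes, namely NPM1, DDX21, LYAR, NOP58, DKC1, NOLC1, UTP20, EBNA1BP2 and LAS1L.

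NOP58 had the smallest p of the 43 genes. It was at 64.9, 67.7 and 68.3 FPKM in Mito-Lipo and 86.5, 74.8 and 74.0 FPKM in DMSO, without overlap, a log2 difference of -0.22 ± 0.09 (SE; adjusted p = 0.589 from limma). NPM1 was at 448, 459 and 491 FPKM against 498, 509.8 and 498 FPKM, also without overlap, with a log2 difference of -0.11 ± 0.08 (adjusted p = 0.823). DKC1 was at 43.6, 50.4 and 50.9 FPKM against 54.99, 53.6 and 54.4 FPKM (-0.17 ± 0.12, adjusted p = 0.82). Without replicate 1 these differences were -0.13 for NOP58, -0.09 for NPM1 and -0.09 for DKC1 (adjusted p = 0.0517, 0.407 and 0.115 from limma). DDX21 was at 94.7, 109.7 and 115 FPKM against 121, 118 and 119 FPKM. Thus the gap was widest at replicate 1 for NOP58, DKC1 and DDX21. LAS1L was at 12.2, 13.2 and 11.8 FPKM against 13.5, 14.2 and 13.9 FPKM, and EBNA1BP2 at 37.8, 39.6 and 42.2 FPKM against 43.5, 43.7 and 43.3 FPKM.

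RRS1 and BOP1, both large subunit factors, split by replicate. RRS1 (chromosome 8, 66429028 to 66430733, plus strand) was at 24.2, 16.1 and 15.6 FPKM in Mito-Lipo and 23.4, 26.8 and 26.5 FPKM in DMSO. Replicate 1 of Mito-Lipo lay inside the DMSO range while replicates 2 and 3 lay well below it. BOP1 (chromosome 8, 144262102 to 144291370, minus strand) was at 68.6, 64.5 and 58.9 FPKM in Mito-Lipo and 66.5, 83.4 and 79.2 FPKM in DMSO. Its Mito-Lipo replicate 1 also lay inside the DMSO range and replicates 2 and 3 below it. Replicate 2, at 64.5 FPKM, was close to the lowest DMSO library, replicate 1 at 66.5 FPKM. With all libraries the log2 differences were -0.46 ± 0.20 for RRS1 and -0.25 ± 0.11 for BOP1 (adjusted p = 0.593 and 0.624 from limma).

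From replicates 2 and 3 alone, 5 of the 43 genes (11.6%) passed the threshold in this comparison and all 5 were lower in Mito-Lipo, against 3.32% of all genes and 5.37% of the protein-coding genes called lower. RRS1 fell by 0.72 ± 0.09 on the log2 scale (adjusted p = 0.00919 from limma) and BOP1 fell by 0.39 ± 0.05 (adjusted p = 0.0125). RRP1B, TCOF1 and NOLC1 fell by 0.23, 0.22 and 0.17 (adjusted p = 0.0387, 0.0237 and 0.048). RRP1B was at 17.9 and 19.0 FPKM in Mito-Lipo and 21.7 and 21.8 FPKM in DMSO in these libraries, but at 21.5 and 20.2 FPKM at replicate 1, the other way round. TCOF1 also crossed over, with 25.4 and 26.4 against 30.8 and 29.9 FPKM, and 25.9 against 24.8 FPKM at replicate 1, whereas NOLC1 was lower at each replicate number. The median over the 43 genes was -0.06 with 33 lower, the same direction as with all libraries. In these libraries 45.2% of all genes and 53.9% of the protein-coding genes were lower. At replicates 1, 2 and 3 taken singly, 27, 33 and 26 of the 43 genes were lower in Mito-Lipo. Over all genes tested it was 8051, 7445 and 10403 of 18574, and 4563, 5257 and 6143 of the 10506 protein-coding genes. MYC differed by 0.01 ± 0.25 with all libraries (adjusted p = 0.998) and by -0.06 ± 0.04 without replicate 1 (adjusted p = 0.492), and the 2 conditions overlapped with all libraries but not without replicate 1.

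**Figure D2:**
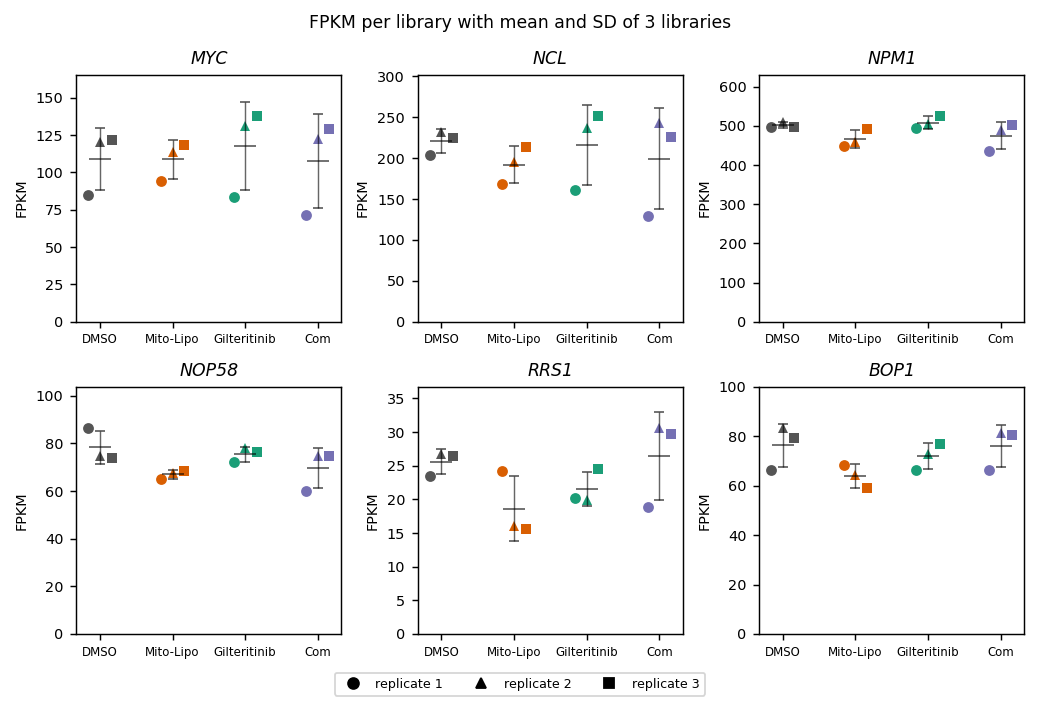
FPKM of 6 genes in each library by condition, with the mean and SD of 3 libraries as black bars, marker shape for the replicate number and an axis from 0. MYC and NCL have their lowest library at replicate 1 in each condition, and RRS1 is lowest in Mito-Lipo replicates 2 and 3, at 16.1 and 15.6 FPKM.

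Gilteritinib against DMSO asks about FLT3 inhibition alone. None of the 43 genes passed the threshold with all libraries (0% of all genes did), and 0 were at an unadjusted p under 0.05, against 1.86% of all genes. The estimates were split, 20 higher and 23 lower, with a median of -0.01 against -0.03 over all genes. That balance turned with the scaling, to 32 higher and 11 lower with median-ratio scaling (median 0.035) and to 24 higher and 19 lower with quantile normalization. No gene of the 43 had groups that did not overlap, against 6.57% of all genes in either direction. At replicate 1 all 43 were lower in Gilteritinib than in DMSO, with a median of -0.19, as were 11721 of the 18574 genes tested, with a median of -0.06, and at replicates 2 and 3 only 4 were lower at each, with medians of 0.06 and 0.11. From replicates 2 and 3 alone the median was 0.09 with 39 of the 43 higher, against 48.6% of all genes. Again 0 of the 43 passed, against 0.614% of all genes. The median was also above 0 without Gilteritinib replicate 1 (0.10) and without DMSO replicate 2 (0.0054). In those fits replicate 1 weighs unequally in Gilteritinib and DMSO.

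MYC was at 83.7, 131 and 138 FPKM in Gilteritinib against 85.0, 120.4 and 122 FPKM in DMSO, a log2 difference of 0.09 ± 0.25 (SE; adjusted p = 0.9999 from limma), and of 0.15 ± 0.04 without replicate 1 (adjusted p = 0.25). RRS1, with the smallest p of this comparison, was at 20.2, 20.0 and 24.5 FPKM against 23.4, 26.8 and 26.5 FPKM and overlapped, with a log2 difference of -0.24 ± 0.20. FBL was at 3.23, 2.95 and 2.72 FPKM against 4.86, 2.92 and 3.34 FPKM (-0.23 ± 0.23). BOP1, at 66.2, 73.0 and 76.8 FPKM, differed from DMSO by -0.08 ± 0.11. Without replicate 1 the differences were -0.26 for RRS1, -0.11 for FBL and -0.12 for BOP1 (adjusted p = 0.331, 0.859 and 0.48 from limma).

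Com against DMSO asks about both drugs together. None of the 43 genes passed the threshold with all libraries. Over all genes 0.00538% did, which is 1 gene, the microRNA gene MIR4316 (named after its value was seen). At an unadjusted p under 0.05 there were 0 of the 43, against 1.67% of all genes, and none had groups that did not overlap, against 5.73%. The estimates were lower for 36 and higher for 7, with a median of -0.06 against -0.01 over all genes. The sign of that median depended on replicate 1. Without Com replicate 1, with replicate 1 of DMSO kept, it was 0.08. From replicates 2 and 3 alone it was 0.06 with 37 of the 43 higher, against 46.6% of all genes. There again 0 of the 43 passed, against 0.0485% of all genes. At replicate 1 all 43 genes were lower in Com than in DMSO, with a median of -0.29, as were 9669 of the 18574 genes tested, with a median of -0.01.

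The genes with the smallest p in this comparison were NOP58, DKC1 and POLR1B. NOP58 was at 59.9, 74.7 and 74.5 FPKM in Com against 86.5, 74.8 and 74.0 FPKM in DMSO, and its log2 difference was -0.17 ± 0.09 with all libraries and 0.00 ± 0.03 without replicate 1 (adjusted p = 1 and 0.994 from limma). DKC1 was at 39.7, 54.8 and 54.9 FPKM against 54.99, 53.6 and 54.4 FPKM. POLR1B was at 13.8, 14.8 and 16.2 FPKM against 17.9, 14.9 and 15.4 FPKM. For all 3 genes the gap was at replicate 1 and the other libraries lay close together. MYC in Com, at 71.5, 123 and 129 FPKM, differed from DMSO by -0.04 ± 0.25 (adjusted p = 1), and by 0.06 ± 0.04 without replicate 1 (adjusted p = 0.884).

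**Figure D3:**
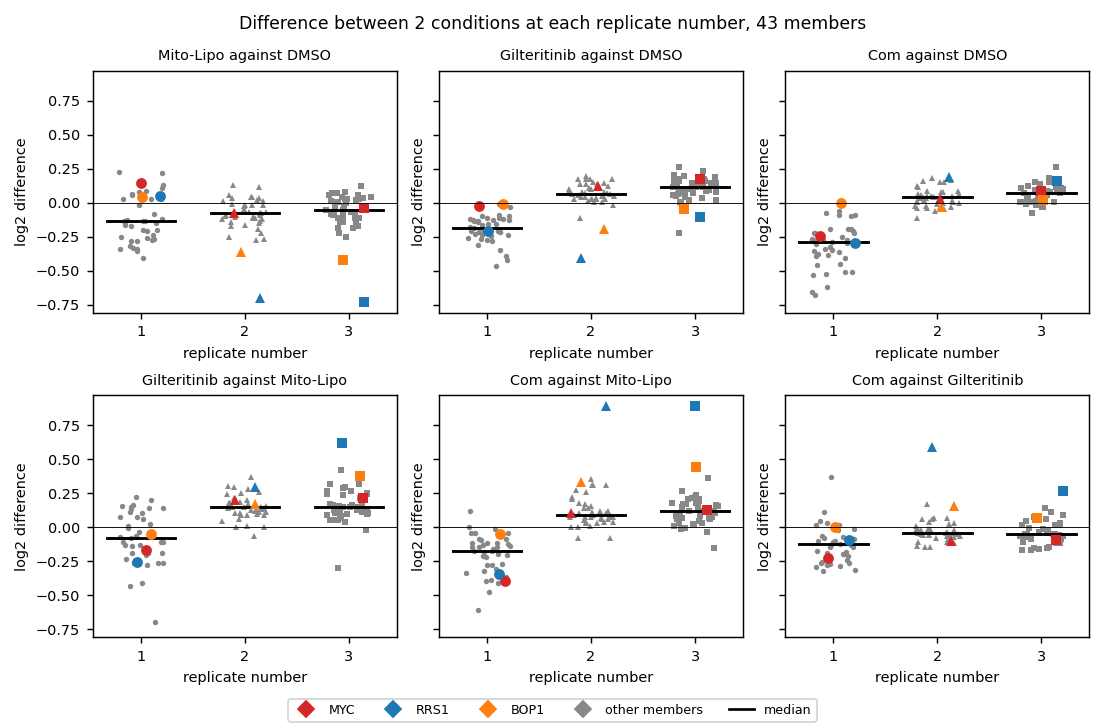
Log2 difference of log2(FPKM + 1) between 2 conditions at each replicate number, 1 point per gene for the 43 genes tested, with the median as a bar and MYC, RRS1 and BOP1 in colour. In Com against DMSO and in Gilteritinib against DMSO all points are below 0 at replicate 1, with medians of -0.29 and -0.19, and most are above 0 at replicates 2 and 3.

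Com against Mito-Lipo asks what gilteritinib added to the mitoxantrone-liposome. With all libraries none of the 43 genes passed (0% of all genes), 2 (4.65%) had an unadjusted p under 0.05 against 5.53% of all genes, and no groups were without overlap, against 9.34%. RRS1 was at 18.9, 30.6 and 29.8 FPKM in Com against 24.2, 16.1 and 15.6 FPKM in Mito-Lipo, and BOP1 at 66.3, 81.4 and 80.6 against 68.6, 64.5 and 58.9 FPKM. Both were higher in Com at replicates 2 and 3 and lower at replicate 1. WDR75, next by p, was at 25.8, 22.8 and 23.7 FPKM against 23.6, 21.7 and 20.8 FPKM, higher in Com at each replicate number, with a log2 difference of 0.13 ± 0.12 (adjusted p = 0.983 from limma).

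From replicates 2 and 3 alone, 42 of the 43 genes were higher in Com than in Mito-Lipo, with a median of 0.12. Over all genes 44.0% were higher (median -0.03), and 51.6% of the protein-coding genes (median 0.007). Of the gene lists described further below, 10 of 10 other snoRNP, 33 of 39 other small subunit and 39 of 41 other large subunit genes were higher. In the MYC network it was 7 of 16, and 32 of 72 ribosomal protein genes. Among the 43 genes, 7 (16.3%) passed, all higher, against 2.62% of all genes and 4.42% of the protein-coding genes called higher. RRS1 rose by 0.89 ± 0.09 (adjusted p = 0.00487 from limma) and BOP1 by 0.39 ± 0.05 (adjusted p = 0.0143). RRP1B, TCOF1, NOLC1, POLR1A and NOP58 rose by 0.27, 0.26, 0.23, 0.20 and 0.13, with adjusted p from 0.015 to 0.0497. MYC differed by 0.12 ± 0.04 (adjusted p = 0.188). With replicate 1 the median was 0.02, and at replicate 1 itself 41 of the 43 were lower in Com. The sign of that median turned without Mito-Lipo replicate 1 (-0.0097), without Com replicate 2 (-0.045) and without Com replicate 3 (-0.045). Those fits have no replicate term, so replicate 1 weighs unequally in Com and Mito-Lipo. Its part in these turns was not tested.

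Gilteritinib against Mito-Lipo sets the single drugs side by side, at different doses. With all libraries 36 of the 43 genes were higher in Gilteritinib, with a median of 0.10, against -0.06 over all genes and -0.02 over the protein-coding genes. None passed (0% of all genes), and 0 had an unadjusted p under 0.05 against 9.52% of all genes. For 5 of the 43 (11.6%) all Gilteritinib libraries lay above all Mito-Lipo libraries, against 5.25% of all genes, namely NPM1, NOP58, UTP15, UTP20 and WDR12. NOP58 was at 72.1, 78.2 and 76.2 FPKM against 64.9, 67.7 and 68.3 FPKM, a log2 difference of 0.17 ± 0.09 (SE; adjusted p = 0.63 from limma). NPM1 was at 495, 505 and 526 FPKM against 448, 459 and 491 FPKM, a difference of 0.13 ± 0.08 (adjusted p = 0.677).

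From replicates 2 and 3 alone, 12 of the 43 genes (27.9%) passed in this comparison, all higher in Gilteritinib, against 2.65% of all genes and 4.45% of the protein-coding genes called higher. MYC was one of them and rose by 0.21 ± 0.04 (adjusted p = 0.0423 from limma), from 114 and 118 to 131 and 138 FPKM. TCOF1, UBTF and POLR1A of the RNA polymerase I group rose by 0.35, 0.26 and 0.25. Of the snoRNP proteins NOLC1, NOP58 and DKC1 rose by 0.28, 0.18 and 0.16. The large subunit factors RRS1, BOP1, RRP1B, MRTO4 and GNL3 rose by 0.46, 0.28, 0.26, 0.24 and 0.16. None of the 15 small subunit factors was among the 12. Of the gene lists described further below, the same fit called 4 of 10 other snoRNP genes, 9 of 37 other MYC targets and 3 of 14 exosome genes higher. It called 2 of 39 other small subunit and 3 of 41 other large subunit genes higher, and 0 in the remaining lists. Called lower were 2 other MYC targets, 2 MYC network genes and 1 other small subunit gene. At replicate 1, 28 of the 43 genes were lower in Gilteritinib, with a median of -0.08, and MYC was at 83.7 FPKM in Gilteritinib and 94.2 FPKM in Mito-Lipo.

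Com against Gilteritinib asks what the mitoxantrone-liposome added, with gilteritinib at 20 nM in Com and 25 nM alone. None of the 43 genes passed with all libraries (0% of all genes), 0 had an unadjusted p under 0.05 against 1.63% of all genes, and none was without overlap, against 6.2%. The estimates were lower for 38 and higher for 5, with a median of -0.07 against 0.02 over all genes, and the median was 0.08 without Com replicate 1 and -0.05 from replicates 2 and 3 alone, where 0 passed, against 0.0754% of all genes. RRS1 was at 18.9, 30.6 and 29.8 FPKM in Com against 20.2, 20.0 and 24.5 FPKM in Gilteritinib, with a log2 difference of 0.26 ± 0.20 (SE). NOP58 was at 59.9, 74.7 and 74.5 against 72.1, 78.2 and 76.2 FPKM (-0.12 ± 0.09). NPM1, at 435, 489 and 501 FPKM in Com against 495, 505 and 526 FPKM in Gilteritinib, overlapped and differed by -0.10 ± 0.08. MYC differed by -0.14 ± 0.25 (adjusted p = 0.9999 from limma) and was lower in Com at each replicate number, by -0.22, -0.10 and -0.09.

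The interaction, the difference of Com from Gilteritinib less that of Mito-Lipo from DMSO, asks whether the mitoxantrone-liposome acted differently in the presence of gilteritinib, although the gilteritinib doses differ. With all libraries none of the 43 genes passed (0% of all genes) and 1 (2.33%), RRS1, had an unadjusted p under 0.05, against 2.91% of all genes. From replicates 2 and 3 alone RRS1 and BOP1 passed (4.65%, against 1.7% of all genes called in that direction). RRS1 had an interaction of 1.15 ± 0.12 (adjusted p = 0.00857 from limma) and BOP1 of 0.51 ± 0.08 (adjusted p = 0.0256). In those libraries RRS1 was highest in Com, at 30.6 and 29.8 FPKM, followed by DMSO at 26.8 and 26.5 FPKM, while each drug alone was lower, at 16.1 and 15.6 FPKM in Mito-Lipo and 20.0 and 24.5 FPKM in Gilteritinib. With all libraries the interaction was 0.72 ± 0.28 for RRS1, 0.14 ± 0.17 for WDR75 and -0.15 ± 0.36 for MYC (adjusted p = 0.9997 from limma for RRS1 and MYC).

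Other genes of the same pathway were taken from lists written from general knowledge. None of the genes in them passed the threshold in any of the 7 tests with all 12 libraries, all genes tested and no replicate block. In Mito-Lipo against DMSO the estimates were lower for 8 of 10 other RNA polymerase I genes (median -0.09), 10 of 10 other snoRNP genes (-0.08), 29 of 39 other small subunit genes (-0.07), 31 of 41 other large subunit genes (-0.06) and 13 of 14 genes of the RNA exosome and exonucleases (-0.10), against 42.96% of all genes and 50.1% of the protein-coding genes. Without replicate 1 these counts were 6, 9, 29, 34 and 11, with medians of -0.04, -0.09, -0.04, -0.05 and -0.09. In those libraries 2 of the other small subunit genes were called lower and 1 higher, 1 of the other large subunit genes was called lower, and 0 were called in the other 3 lists. Over all genes 3.32% were called lower and 3.08% higher there. EXOSC9, a core subunit of the exosome, was at 12.7, 13.0 and 12.7 FPKM in Mito-Lipo against 15.1, 15.0 and 14.6 FPKM in DMSO, without overlap, and differed by -0.20 ± 0.07 (SE; adjusted p = 0.526 from limma). UTP18 of the small subunit list was at 39.3, 37.4 and 37.5 FPKM against 42.8, 43.3 and 44.4 FPKM, also without overlap (-0.19, adjusted p = 0.563 from limma), and it fell by 0.22 without replicate 1 (adjusted p = 0.0143). DIS3 (the exosome's nuclease), NAF1 (a snoRNP assembly factor) and NOL11 had lower means in Mito-Lipo than in DMSO, at 12.9, 13.9 and 36.3 against 14.9, 15.6 and 42.6 FPKM. The other leading genes of these lists also had lower means in Mito-Lipo. Of the RNA polymerase I list, POLR1F, TAF1D and TTF1 were at means of 9.31, 55.4 and 7.997 FPKM in Mito-Lipo against 10.6, 61.5 and 8.70 FPKM in DMSO. SHQ1 and NUFIP1 of snoRNP assembly were at 15.4 and 5.61 against 17.3 and 6.04 FPKM, and IMP3 of the small subunit list at 12.2 against 13.8 FPKM. WDR18, CEBPZ and AFG2A of the large subunit list were at 30.3, 29.1 and 8.38 against 36.8, 33.8 and 10.1 FPKM, and EXOSC3 of the exosome at 13.5 against 15.1 FPKM.

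The MYC network, meaning MYC's partners, antagonists and regulators, had 12 of 16 genes higher in Mito-Lipo than in DMSO with all libraries (median 0.04). Without replicate 1 it had 7 higher and 9 lower, with a median of -0.06, and the median of the 43 genes there was also -0.06. In those libraries 2 of the 16 were called higher and 0 lower, against 3.08% of all genes called higher. The gene of this list with the smallest p was MXD1, which competes with MYC for MAX. MXD1 was at 7.84, 11.5 and 11.98 FPKM in Mito-Lipo, and at 6.76, 7.28 and 7.30 FPKM in DMSO, 6.17, 7.09 and 7.43 FPKM in Gilteritinib, and 6.43, 7.66 and 7.23 FPKM in Com. All 3 Mito-Lipo libraries lay above all other 9. The log2 difference of MXD1 to DMSO was 0.47 ± 0.14 (adjusted p = 0.492 from limma), and from replicates 2 and 3 alone MXD1 rose by 0.62 (adjusted p = 0.00341). For MXD1, Mito-Lipo against DMSO, the adjusted p was 0.0281 over protein-coding genes with the replicate block and 0.0467 without Mito-Lipo replicate 1. The next genes of this list by p were USP28, a deubiquitinase, with means of 5.04 FPKM in Mito-Lipo and 5.85 FPKM in DMSO, and ZBTB17, a zinc finger partner of MYC, with 10.3 and 9.45 FPKM.

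The other MYC targets, genes of nucleotide synthesis, mitochondria and growth, were lower in Mito-Lipo than in DMSO for 30 of 37, with a median of -0.11. Without replicate 1, 28 of 37 were lower, with a median of -0.09. There 3 were called lower and 2 higher, against 3.32% and 3.08% of all genes. GART, an enzyme of purine synthesis, was at 40.6, 41.3 and 41.6 FPKM against 50.9, 46.0 and 46.1 FPKM, without overlap (-0.20 ± 0.07, adjusted p = 0.507 from limma). TFAM, a mitochondrial DNA packaging protein, was at 22.4, 22.1 and 24.0 FPKM against 28.2, 26.7 and 25.8 FPKM (-0.23 ± 0.08, adjusted p = 0.546). C1QBP, a mitochondrial protein, was at 231, 183 and 196 FPKM against 223, 231 and 266 FPKM. C1QBP overlapped with all libraries (-0.24, adjusted p = 0.584 from limma), and without replicate 1 it did not and fell by 0.38 (adjusted p = 0.0387).

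The cytosolic ribosomal protein genes, 72 tested, had 47 higher and 25 lower estimates in Mito-Lipo against DMSO. Their median was 0.02, against 0.03 over all genes and -0.0002 over the protein-coding genes. Their direction differed between replicate numbers, with 39 of 72 lower at replicate 1, 53 lower at replicate 2 and 62 higher at replicate 3 (medians of -0.01, -0.04 and 0.11). Without replicate 1, RPL13 was the only one of the 72 called in this comparison. It was lower, as were 3.32% of all genes by the same call. RPL5 was at 632, 577 and 612 FPKM in Mito-Lipo and 649, 601 and 571 FPKM in DMSO, and RPL11 at 164, 198 and 209.8 against 185, 195 and 205 FPKM, and both pairs overlapped. RPL10 and RPS15 had means of 529 and 486 FPKM in Mito-Lipo against 487 and 545 FPKM in DMSO. RPL13 was at 271 and 278 FPKM in Mito-Lipo replicates 2 and 3 and at 278 and 306 FPKM in those of Gilteritinib, against 545 and 534 FPKM in DMSO and 445 and 520.4 FPKM in Com. Without replicate 1 the log2 difference of RPL13 to DMSO was -0.97 in Mito-Lipo (adjusted p = 0.00284 from limma) and -0.89 in Gilteritinib (adjusted p = 0.0187). At replicate 1 RPL13 did not show this, with 506 and 495 FPKM in Mito-Lipo and Gilteritinib against 443 FPKM in DMSO.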

How the data were processed

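RNA was sequenced by a company in 12 libraries. The authors deposited FPKM per gene. The submitters' processing notes name Bowtie 0.12.9, Cufflinks 2.1.1, HTSeq, DESeq2 and the mouse build mm10, although the identifiers are human. Positions and overlaps are from GENCODE 29 (GRCh38), matched by Ensembl ID, and promoters from RefSeq. Depth was recovered from the step that 1 fragment makes. FPKM were tested as log2(FPKM + 1), which understates changes of low genes, for 18574 genes with at least 1 FPKM in at least 3 libraries, with limma 3.58.1 (R 4.3.3, mean-variance trend, 1 mean per condition, Benjamini-Hochberg over all genes, two-sided, adjusted p under 0.05). The fit was also run on simulated data for Com against DMSO over 18574 genes, 200 of them changed by a log2 effect of 1. It recovered 89.8% of these, and 73.2% with a simulated shift between replicate numbers (86.7% with the block). The members' estimates in that comparison ran only from -0.20 to 0.05 with all libraries, and recovery of changes of that size was not tested.

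All 18 same-numbered pairs of libraries correlated in their deviations from the condition means (0.165 to 0.657). Pairs with different numbers were not compared, so pairing beyond the separation of replicate 1 was not tested. The members and lists were chosen with earlier results of these data known. Named by rule are MYC and, per comparison, the 3 members with the smallest p, of each other list the 3 smallest in Mito-Lipo against DMSO, and RPL5 and RPL11. Other members' values, those called from replicates 2 and 3 included, were chosen after the data were seen. Promoters are printed as short windows, since parts of them are annotated as exons. COL3A1 was not matched. Alternatives are given under the dependence on processing.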

Additional observations from a re-analysis of the deposited data

How the results depend on the processing

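With the replicate block, the number of the 43 genes past the threshold stayed 0 in all 7 tests, and no call on the members changed. It was 0 under each other alternative except replicates 2 and 3 only, where it was 5 in Mito-Lipo against DMSO, 7 in Com against Mito-Lipo, 12 in Gilteritinib against Mito-Lipo and 2 in the interaction. Leaving replicate 1 out removes 4 libraries and their spread from the fit. The median over the members reversed in Gilteritinib against DMSO with median-ratio scaling (0.035), quantile normalization (0.0055) and replicates 2 and 3 only (0.094), and in Com against DMSO with replicates 2 and 3 only (0.055). With 1 library left out at a time, where the other conditions lend their spread, the medians ran from -0.056 to 0.099 in Gilteritinib against DMSO, -0.14 to 0.076 in Com against DMSO, -0.16 to 0.081 in Com against Gilteritinib, -0.045 to 0.15 in Com against Mito-Lipo and -0.065 to 0.13 in the interaction. The interaction median turned without Mito-Lipo replicate 1 (-0.015), Gilteritinib replicate 1 (-0.065), Com replicate 2 (-0.055) and Com replicate 3 (-0.055). The medians kept their sign in Mito-Lipo against DMSO (-0.11 to -0.06) and Gilteritinib against Mito-Lipo (0.04 to 0.20). The fits without 1 library have no replicate term, so replicate 1 weighs unequally between the condition that lost a library and the others. No named gene was called in the fit described under the processing, which used all 12 libraries, all genes tested and no replicate block. Of 5838 values of named genes under alternatives, 38 passed the threshold, 30 of them with replicates 2 and 3 only, and 292 uncalled values changed sign. The cause of these changes was not tested.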
